A study of Mus musculus with 10 samples.

Results

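The HOX, MEIS and PBX genes of the mouse were described in cancer-associated fibroblasts of pancreatic tumours. They were taken by symbol from the numbered Hoxa, Hoxb, Hoxc and Hoxd genes, the MEIS genes and the PBX genes, and 44 protein-coding genes (38 HOX, 3 MEIS and 3 PBX) are described here, of the 48471 genes with a matched transcript. The tumours were pancreatic ductal adenocarcinomas that grew in C57BL/6J mice after KPC T-LOH organoids were placed into the pancreas, and no treatment is named in the labels. Myofibroblastic cancer-associated fibroblasts (myCAFs) were sorted by the surface protein CD90, the product of Thy1, into CD90-positive and CD90-negative cells. There were 5 libraries of each fraction, made from 5 tumour pools whose titles name 4, 1, 2, 3 and 1 animals. The design text counts 5 male mice whereas the titles name 11 animals, so n is given as pools. Both fractions came from tumours of the same organoid model, no tumour-free pancreas was analysed here, and gate markers beyond CD90 were not given in the sources used here.

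HOX proteins are homeodomain transcription factors whose genes lie in clusters, and their order along a cluster follows the order in which they are used from head to tail of the embryo. Fibroblasts of adult organs keep a HOX pattern that marks where in the body they arose. PBX and MEIS proteins are homeodomain factors of the TALE class that bind DNA beside HOX proteins. PBX proteins pair with many HOX proteins, and MEIS proteins bind PBX and help to bring it into the nucleus. In the GRCm38 annotation the HOXA, HOXB, HOXC and HOXD clusters lie on chromosomes 6, 11, 15 and 2. Meis1 lies on chromosome 11, Meis2 on 2, Meis3 on 7, Pbx2 on 17, Pbx3 on 2 and Pbx4 on 8.

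Transcripts of 5 HOX genes and of Meis1 and Meis2 were scarcer in the CD90-negative than in the CD90-positive sorted fraction. Pbx2, Pbx3 and Pbx4 did not pass the threshold. Of the 29 genes of the 3 families that passed the filter on low counts, 7 fell in the CD90-negative fraction and 0 rose, in the quasi-likelihood test of edgeR with the tumour pool as a block and a Benjamini-Hochberg adjusted p under 0.05. The 7 were Hoxa3, Hoxa5, Hoxb2, Hoxb3, Hoxb7, Meis1 and Meis2, or 24.1% of those tested. Of all 15378 genes tested, 7.05% fell and 5.83% rose (12.9% in either direction). The mean levels of the 7 were 1.56 times as high in the CD90-positive fraction for Meis2 and between 2.88 and 4.58 times as high for the other 6, in CPM (reads scaled to the TMM-adjusted library size). In bulk libraries such as these, fewer cells of a type and less RNA per cell cannot be told apart.

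This count differed with the pools and settings used. Leaving out pool 1 gave 1 (Meis1), beside 2.38% of all genes lower in that fit. Leaving out pool 2 gave 3 beside 4.34%, pool 3 gave 8 beside 8.05%, pool 4 gave 3 beside 4.51%, and pool 5 gave 6 beside 5.23%. It was 0, beside 1.14% of all genes, without pools 4 and 5, which hold the libraries with the fewest nuclear coding counts. An unadjusted p under 0.05 in edgeR was then found for 15 of 30 genes of the families and 3190 of all 16134 genes. With all pools it was found for 16 of 29 and 4132 of 15378. The count of called genes was also 0, with 0 calls over all genes, once the mitochondrial ribosomal RNA share of each library entered the fit as a covariate. In that fit 1 of 29 genes of the families had an unadjusted p under 0.05, beside 882 of all 15378 genes. The ribosomal RNA share is closely tied to the fraction. Standard errors of the 7 genes were 0.55 to 1.88 in that fit, against 0.18 to 0.56 without the covariate. The covariate fit therefore separates the fraction from the share with little precision. The log2 folds of the 7 ran from −2.72 (Hoxa3) to −0.10 (Hoxb2) in it. The 7 called genes kept their direction in each of the 18 alternative settings. The fit without the pool block called 2, Hoxa3 and Hoxb7, beside 3.54% of all genes. The fit with an effective length offset called 2, Hoxa3 and Meis1, beside 3.08%.

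The sort and the cell type were checked on the same libraries. Thy1 was at 2.09 to 16 CPM in CD90-negative libraries and 39.2 to 117 CPM in CD90-positive ones (log2 fold −3.50, SE 0.50, adjusted p = 0.00561 in edgeR). Library totals ran from 11.7 to 47.7 M estimated counts, with 3.71 to 28.5 M on nuclear coding genes. Mitochondrial ribosomal RNA took 35.6% to 84.4% of the counts in CD90-negative and 10.5% to 44.8% in CD90-positive libraries, and its share was higher in the CD90-negative library of each pool. The 9 fibroblast markers were detected in each fraction. Their summed level, mostly of collagen genes, was 4052 to 20455 CPM in CD90-negative libraries and 32400 to 53864 CPM in CD90-positive ones. Of the 9, 8 fell.

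The sequences just upstream of the gene starts are shown because many of the HOX genes had log2 folds of the same sign and HOX and TALE proteins bind short, known DNA words. RefSeq promoter entries (GRCm38.p6) were found for 27 of the 44 genes, with 29 windows of 250 bases before the start. The called genes Hoxb2, Hoxb3 and Hoxb7 had no entry and were not searched. The PBX-HOX word TGATTNAT was found on either strand in 2 of the 29 windows, those of Hoxa2 and Hoxd11, against 2.82% of 32851 mouse promoter windows. The MEIS word TGACAG was found in 2, those of Hoxa2 and Hoxa3, against 15.9%, and the joined PBX-MEIS word, a PBX core run together with the MEIS word, in 0, against 0.198%. Hoxa2 is printed as the window that held both words, Hoxa3 as the called HOX gene with a MEIS word, and Meis1 as the called gene with the smallest p and no match. Each is read 5′ to 3′ on the minus strand, at chr6:52164832-52165081 for Hoxa2, chr6:52213068-52213317 for Hoxa3 and chr11:19018970-19019219 for Meis1, with the matched words in capitals. A match on the opposite strand appears as its reverse complement.
Hoxa2: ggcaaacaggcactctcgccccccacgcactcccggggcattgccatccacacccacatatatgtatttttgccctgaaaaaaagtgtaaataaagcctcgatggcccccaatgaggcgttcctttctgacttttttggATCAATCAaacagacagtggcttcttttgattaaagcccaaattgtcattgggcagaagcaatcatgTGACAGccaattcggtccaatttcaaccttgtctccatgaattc
Hoxa3: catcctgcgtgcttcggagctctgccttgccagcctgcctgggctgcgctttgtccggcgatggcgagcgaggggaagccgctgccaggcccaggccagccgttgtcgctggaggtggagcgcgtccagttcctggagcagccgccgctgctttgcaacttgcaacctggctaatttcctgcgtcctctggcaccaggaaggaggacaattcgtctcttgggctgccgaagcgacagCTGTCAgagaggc
Meis1: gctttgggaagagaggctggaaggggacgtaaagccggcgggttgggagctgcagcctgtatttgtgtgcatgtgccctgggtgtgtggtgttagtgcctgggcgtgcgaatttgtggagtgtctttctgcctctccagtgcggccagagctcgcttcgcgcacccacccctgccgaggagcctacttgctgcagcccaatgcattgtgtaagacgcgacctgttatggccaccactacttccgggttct
These matches describe the letters in the windows, and no binding was measured.

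Whether each gene was expressed in both fractions was read from a rule of at least 1 CPM in at least 3 of the 5 libraries of a fraction. By this rule 14 genes were expressed in both, 11 in the CD90-positive fraction only, 1 in the CD90-negative fraction only and 18 in neither. The 14 were Meis1, Meis2, Meis3, Pbx2, Pbx3 and 9 HOX genes, namely Hoxa3, Hoxa5, Hoxa7, Hoxb2, Hoxb3, Hoxb4, Hoxb6, Hoxc4 and Hoxd8. The 11 above the limit in the CD90-positive fraction only were all HOX genes: Hoxa2, Hoxa4, Hoxa6, Hoxa9, Hoxb5, Hoxb7, Hoxb8, Hoxc5, Hoxc6, Hoxc8 and Hoxc10. Pbx4 alone passed in the CD90-negative fraction only, with levels near 1 CPM in each.

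The split leaned on the limit and on what the library size counts. With mitochondrial genes left out of the library size, 23 genes passed in both fractions, as also at a limit of 0.5 CPM. Leaving them out makes the libraries smaller and so raises CPM. The same 7 genes were called, and the log2 fold of Hoxa3 was −2.03 against −2.04. With at least 10 estimated counts in place of the CPM limit, 24 passed. With at least 1 CPM asked of all 5 libraries, 7 passed. A gene listed as CD90-positive only is therefore one that lay below 1 CPM in most libraries of the other fraction. The estimated counts of those 11 genes summed to between 48 (Hoxc10) and 434 (Hoxa4) over the CD90-negative libraries.

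Meis1, a HOX cofactor known from blood stem cells and leukaemia, had the smallest p of the 29 tested genes. It was at 12.4, 10.8, 59.7, 15.0 and 5.91 CPM in the CD90-negative libraries of pools 1 to 5 and at 55.1, 71.1, 79.0, 54.4 and 39.3 CPM in the CD90-positive ones. The CD90-negative library of pool 3 was the high one of its group and lay among the CD90-positive values, so the groups overlapped, while the CD90-negative library was the lower in 5 of 5 pools. The log2 fold was −1.99 (SE 0.34, adjusted p = 0.00783 in edgeR) and −2.37 without pool 3. Meis1 was called in 15 of the 18 alternative settings.

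Meis2, a close paralog of Meis1 with a similar homeodomain, differed less. Its CD90-negative libraries were at 32.3, 28.8, 41.7, 22.5 and 37.2 CPM and its CD90-positive libraries at 53.6, 67.5, 51.9, 36.7 and 44.4 CPM. The groups overlapped, and the CD90-negative library was the lower in 5 of 5 pools. The log2 fold was −0.65 (SE 0.18, adjusted p = 0.0395 in edgeR). Meis2 was called in 10 of the 18 alternative settings. The call was lost without pool 1, 2 or 4, where adjusted p was 0.151, 0.127 and 0.0971, and without pools 4 and 5, with no pool block, with upper-quartile scaling, with the length offset and with the covariate. Meis3, the third MEIS gene, was at 3.89, 2.55, 6.10, 3.63 and 3.55 CPM in CD90-negative libraries and 7.22, 12.5, 7.98, 6.66 and 5.89 CPM in CD90-positive ones. It too was lower in 5 of 5 pools, but its log2 fold of −1.02 (SE 0.37) did not pass (adjusted p = 0.102 in edgeR).

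The PBX genes, whose products pair with HOX proteins on DNA, showed no difference past the threshold. Pbx2 was at 6.86, 7.78, 10.2, 10.6 and 8.13 CPM in CD90-negative libraries and 13.3, 7.58, 9.63, 12.9 and 4.32 CPM in CD90-positive ones (log2 fold −0.05, SE 0.30, adjusted p = 0.936 in edgeR). Pbx3 was at 5.44, 5.10, 8.57, 8.33 and 8.61 CPM against 8.90, 5.38, 8.90, 11.1 and 1.28 CPM (log2 fold 0.18, SE 0.48, adjusted p = 0.855 in edgeR). In both genes the CD90-positive library of pool 5 was the low one, and the groups overlapped. Pbx4 lay between 0.0982 and 2.28 CPM over the 10 libraries, and its log2 fold of 0.26 had an SE of 0.87. The directions of Pbx2, Pbx3 and Pbx4 changed with the setting, so none is given for them.

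**Figure D1:**
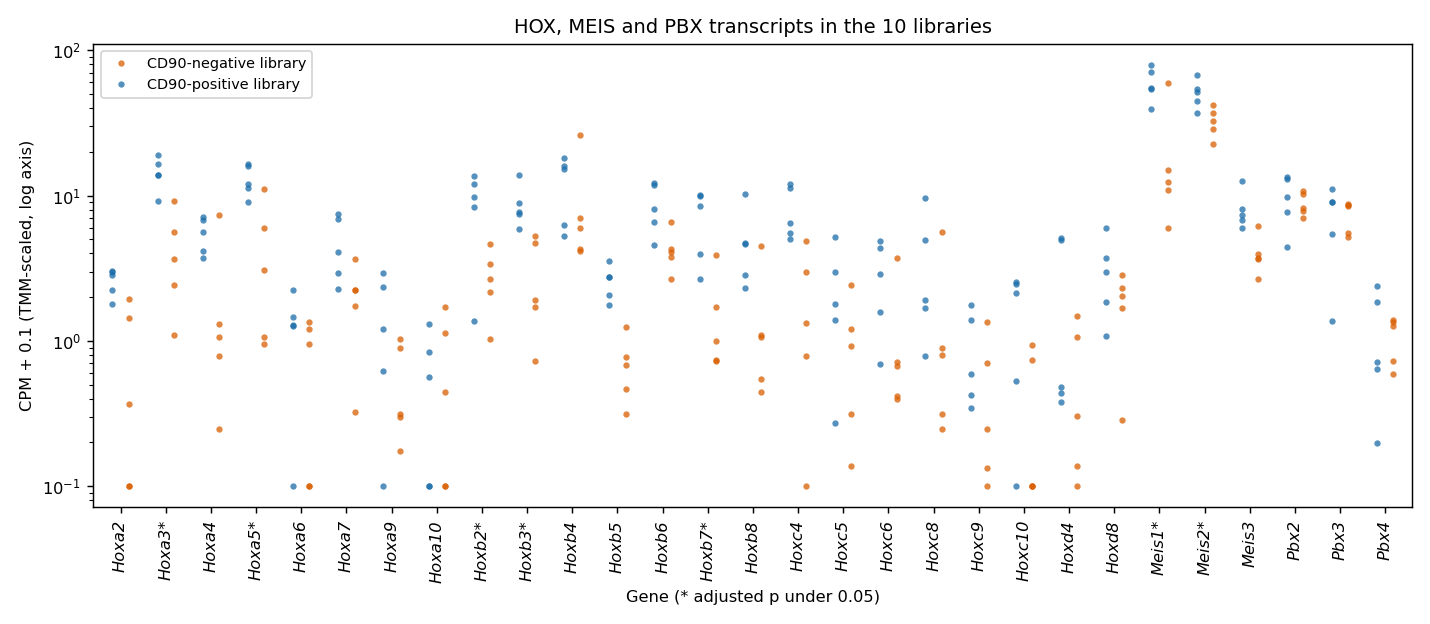
CPM of the 29 tested HOX, MEIS and PBX genes in each of the 10 libraries on a log axis, with 0.1 added so that values of 0 can be drawn; each point is a library and a star marks an adjusted p under 0.05. Meis1 and Meis2 lie highest, most HOX genes lie lower in the CD90-negative libraries, and the PBX genes overlap between fractions.

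The unequal change of Meis1 and Meis2 was measured as a ratio within each library. This ratio was not among the planned tests. The folds given above come from the same counts, so its p is no separate support for them. The log2 ratio of Meis1 to Meis2 was −1.11 ± 1.17 in CD90-negative libraries and 0.22 ± 0.35 in CD90-positive ones (SD, n = 5), and the groups overlapped. It was lower in the CD90-negative library in 5 of 5 pools, with a mean difference of −1.33 and an exact two-sided paired permutation p of 0.0625, which is the smallest that 5 pools allow. Leaving out a pool gave mean differences from −1.64 to −1.04.

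Levels of different genes were compared only per length, as CPM per kilobase of effective length. Each transcript was divided by its own effective length, so these levels and their order depend on how reads were divided among transcripts. In the CD90-positive libraries the order began with Meis2 at 26.4 ± 7.6 and Meis1 at 21.2 ± 4.2 (SD, n = 5), whose ranges overlapped. Hoxa3 at 8.40 ± 4.30, Hoxa5 at 7.47 ± 1.89, Meis3 at 6.64 ± 0.96 and Hoxb7 at 6.17 ± 3.04 came next and overlapped among themselves. The lowest Meis1 library, at 15.7, lay above the highest Hoxa3 library, at 15.2. In the CD90-negative libraries Meis2 was again the first at 15.8 ± 5.2 and Meis1 was next at 7.30 ± 7.13. Pbx3, Pbx2 and Meis3 followed, and Hoxb4 at 3.96 ± 4.04 was the HOX gene with the highest mean. Both places rested on 1 library: without pool 3 the mean of Meis1 was 4.16, below Pbx3 at 5.26, and without pool 4 that of Hoxb4 was 2.17, below Hoxa5 at 3.04.

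Among HOX genes, the called ones belonged to the HOXA and HOXB clusters and to paralog numbers 2 to 7. The 6 tested HOXC genes, none called, all had log2 folds below 0. Their median was −1.81, beside −1.75 for HOXA and −1.92 for HOXB. Hoxa3, which takes part in forming pharyngeal organs, was at 3.58, 2.31, 9.15, 5.55 and 0.997 CPM in CD90-negative libraries and 13.7, 18.8, 13.7, 16.3 and 9.14 CPM in CD90-positive ones. The CD90-negative library of pool 3 reached the lowest CD90-positive value, and the others lay below it. The log2 fold was −2.04 (SE 0.41, adjusted p = 0.0112 in edgeR), and it was called in 15 of the 18 alternative settings. The promoter printed above with a MEIS word is the RefSeq entry of this gene. That window lies between those of Hoxa6 and Hoxa7, upstream of the Hoxa5 and Hoxa6 windows. Whether the counted Hoxa3 reads came from this start was not examined.

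Hoxa5, known for its part in lung and gut mesenchyme, was at 2.99, 5.90, 10.99, 0.961 and 0.850 CPM in CD90-negative libraries and 8.90, 16.4, 15.9, 11.1 and 12.0 CPM in CD90-positive ones. The value of pool 3 again set the overlap. The log2 fold was −2.08 (SE 0.51, adjusted p = 0.0263 in edgeR). This gene passed the count filter in 4 of the 5 CD90-negative libraries, whereas the other 6 called genes passed in all 10 libraries.

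Hoxb2, Hoxb3 and Hoxb7 were the called genes of the HOXB cluster. Hoxb2, a regulator of hindbrain segments in the embryo, was at 3.30, 2.08, 4.53, 2.56 and 0.924 CPM in CD90-negative libraries and 13.5, 11.9, 8.29, 9.67 and 1.28 CPM in CD90-positive ones (log2 fold −1.59, SE 0.40, adjusted p = 0.0293 in edgeR). Pool 5 was low in both fractions and made the groups overlap. Hoxb3 was at 1.62, 4.63, 5.15, 1.82 and 0.628 CPM against 13.6, 8.72, 5.79, 7.64 and 7.37 CPM, with no overlap (log2 fold −1.92, SE 0.55, adjusted p = 0.0461 in edgeR). Hoxb7, a trunk-level HOX gene, was at 0.895, 0.637, 3.80, 1.60 and 0.628 CPM against 10.1, 9.79, 8.41, 3.84 and 2.55 CPM. Pools 4 and 5 were the low ones of its CD90-positive group, and the log2 fold was −2.35 (SE 0.56, adjusted p = 0.0237 in edgeR). Hoxb3 was called in 7 of the 18 alternative settings, Hoxa5 in 10, Hoxb2 in 11 and Hoxb7 in 13.

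The most abundant HOX genes that did not pass were Hoxb4, Hoxb6, Hoxc4, Hoxa4 and Hoxa7. Hoxb4, known for its effect on blood stem cells, was at 4.20, 4.06, 5.88, 25.8 and 6.91 CPM in CD90-negative libraries and 15.2, 15.9, 5.19, 17.9 and 6.19 CPM in CD90-positive ones. The CD90-negative library of pool 4, which has the fewest nuclear coding counts of the 10, was the highest of all, and the log2 fold was −0.57 (SE 0.44, adjusted p = 0.461 in edgeR). Hoxb6 was at 6.48, 4.01, 3.69, 2.55 and 4.20 CPM against 12.1, 11.8, 6.53, 7.96 and 4.50 CPM. It was lower in 5 of 5 pools, and its log2 fold of −1.002 had an SE of 0.34 (adjusted p = 0.0847 in edgeR).

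Hoxc4 was at 0.688, 0, 4.79, 2.88 and 1.22 CPM in CD90-negative libraries and 5.45, 12.0, 6.33, 4.94 and 11.2 CPM in CD90-positive ones. These groups did not overlap, yet the log2 fold of −2.63 had an SE of 1.11 and did not pass (adjusted p = 0.172 in edgeR). Hoxa4 was at 0.688, 1.21, 7.23, 0.961 and 0.148 CPM against 7.03, 5.50, 6.66, 4.08 and 3.63 CPM. Its CD90-negative library of pool 3 was the highest of the 10, and the log2 fold of −2.37 (SE 0.70) fell just short of the threshold (adjusted p = 0.0528 in edgeR). It was called without pool 3. Hoxa7 was at 2.13, 1.64, 3.54, 2.14 and 0.222 CPM against 3.96, 7.36, 6.83, 2.18 and 2.85 CPM. The groups overlapped, the CD90-negative library was the lower in 5 of 5 pools, by little in pool 4, and the log2 fold of −1.46 (SE 0.61) did not pass (adjusted p = 0.156 in edgeR).

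The other 13 tested HOX genes were uncalled and had mean levels of 0.294 to 1.73 CPM in CD90-negative libraries and 0.484 to 4.84 CPM in CD90-positive ones. Within the HOXA cluster the log2 folds were −3.02 (SE 1.41) for Hoxa2, −1.36 (SE 1.31) for Hoxa6, −1.27 (SE 1.07) for Hoxa9 and 0.06 (SE 2.30) for Hoxa10. In the HOXB cluster they were −2.15 (SE 0.71) for Hoxb5, whose groups did not overlap, and −2.19 (SE 0.84) for Hoxb8. In the HOXC cluster they were −1.24 (SE 1.33) for Hoxc5, −1.73 (SE 0.69) for Hoxc6, −1.89 (SE 0.59) for Hoxc8, −1.71 (SE 1.32) for Hoxc9 and −3.34 (SE 2.04) for Hoxc10. The HOXD cluster gave −2.07 (SE 1.44) for Hoxd4 and −0.93 (SE 0.62) for Hoxd8. Adjusted p in edgeR ran from 0.0637 (Hoxc8) to 0.99 (Hoxa10) over these 13 genes. Standard errors above 1 belonged to 8 of the 13, which had 185 to 532 estimated counts over the 10 libraries.

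**Figure D2:**
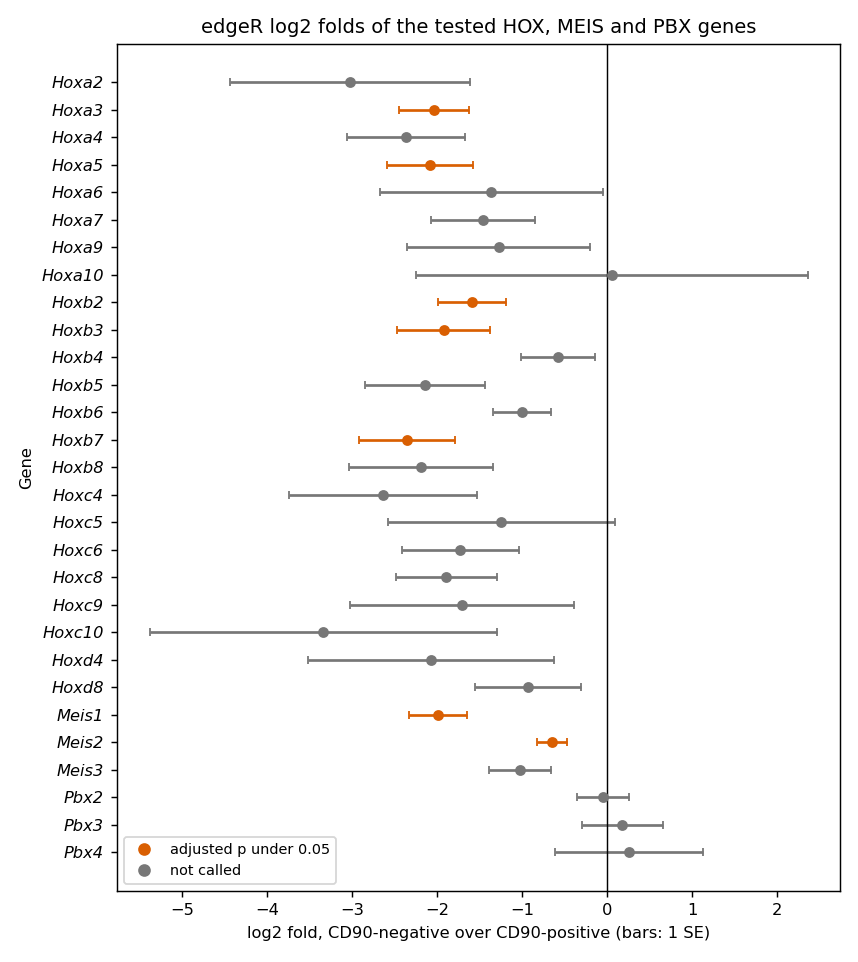
Log2 fold (CD90-negative over CD90-positive, edgeR with the pool as a block) of the 29 tested genes, with bars of 1 SE; orange marks an adjusted p under 0.05. The 7 called genes lie between −2.35 and −0.65, and the widest bars belong to Hoxa10 and Hoxc10.

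In sum over the tested genes, 26 had a log2 fold below 0 and 3 above, with a median of −1.71 beside 0.04 over all genes tested. Of the 23 tested HOX genes, 22 were below 0, and 11 were lower in the CD90-negative library of each of the 5 pools. The like counts over all genes were not taken. The HOX genes were measured in the same libraries, so these are not independent agreements. Groups did not overlap, with the CD90-negative libraries lower, in 3 of the 29 genes (Hoxb3, Hoxb5 and Hoxc4), and in 4.61% of all genes tested. The filter asked for enough counts in 5 libraries of either fraction, and 12 of the 29 passed it in all 5 CD90-positive but in 2 to 4 of the CD90-negative libraries.

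The HOX level was lowest at the highest paralog numbers in both fractions. All 15 HOX genes of paralog numbers 4 to 8 were tested, against 4 of the 7 described of numbers 1 to 3 and 4 of the 16 of numbers 9 to 13. Summed per length, numbers 4 to 8 gave 50.3 ± 9.4 CPM per kb in CD90-positive libraries and 20.3 ± 11.5 in CD90-negative ones (SD, n = 5). Numbers 1 to 3 gave 19.6 ± 7.4 and 6.09 ± 3.28, and numbers 9 to 13 gave 2.93 ± 2.18 and 1.40 ± 1.015. These sums cover 15, 7 and 16 genes. Per gene, numbers 4 to 8 and 1 to 3 were close, at 3.35 and 2.797 CPM per kb in CD90-positive and 1.35 and 0.870 in CD90-negative libraries, whereas numbers 9 to 13 were at 0.183 and 0.0874. No gene of numbers 9 to 13 was expressed in both fractions by the rule.

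The genes at the 5′ ends of the clusters, which pattern the hind part of the trunk and the limbs, were near or at 0. Hoxb13, Hoxc11, Hoxc12, Hoxd12 and Hoxd13 had 0 counts in all 10 libraries, where 3 counts would be 0.0452 to 0.320 CPM. Hoxa11 and Hoxa13 had 1 count each over the 10 libraries, Hoxc13 had 3, Hoxd10 had 5, Hoxd11 had 11, Hoxd9 had 14 and Hoxb9 had 53. At the other end, Hoxd1 had 2 counts and Hoxb1 had 23. Hoxd3 had 64, all in CD90-positive libraries and most of them in pool 2, and 0 in the CD90-negative ones. These 15 genes were not tested.

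**Figure D3:**
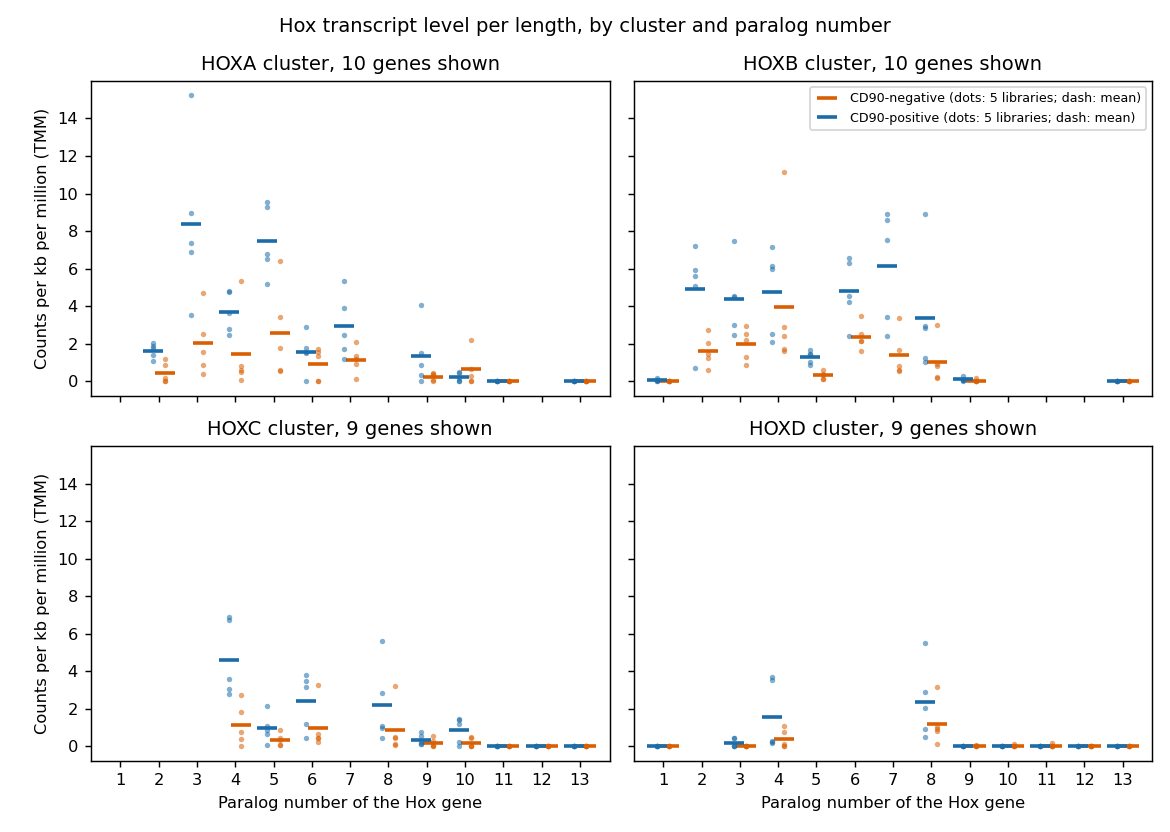
CPM per kilobase of effective length for the 38 HOX genes, by cluster and paralog number; dots are the 5 libraries of a fraction and dashes their means. In the CD90-positive libraries the means of numbers 2 to 7 of HOXA and 2 to 8 of HOXB lie above 1, the CD90-negative means lie lower at each of these numbers, and numbers 11 to 13 lie at or near 0 in all 4 clusters.

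The HOXB and HOXA clusters held most of the HOX transcripts. Summed per length, HOXB gave 29.96 ± 7.6 in the CD90-positive and 12.8 ± 4.6 in the CD90-negative libraries, and HOXA gave 27.3 ± 8.7 and 9.46 ± 7.89 (SD, n = 5). HOXC gave 11.4 ± 3.5 and 3.78 ± 4.20, and HOXD 4.15 ± 3.01 and 1.70 ± 1.14. The sum over the 38 HOX genes was 20.02, 23.8, 51.6, 32.6 and 10.8 in the CD90-negative and 90.1, 88.9, 74.4, 58.2 and 52.4 in the CD90-positive libraries. Pool 3 of the CD90-negative and pool 5 of the CD90-positive fraction nearly touched.

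The HOX sum was set beside the cell type markers in each pool. The HOX, MEIS and PBX sums were in CPM per kb and the markers in CPM, so their ratios are on unlike scales. Its log2 ratio of CD90-negative to CD90-positive was −2.17, −1.90, −0.53, −0.84 and −2.28 in pools 1 to 5, while that of the 9 fibroblast markers was −2.53, −2.82, −0.66, −2.003 and −3.36. Pool 3 lay nearest 0 in both. The fibroblast sum was mostly reads of the collagen genes Col1a1, Col1a2 and Col3a1. Taken singly, the 9 fibroblast markers had CD90-positive means 2.28 (Pdpn) to 5.65 (Pdgfrb) times the CD90-negative ones, against 2.62 for the HOX sum. The sum of the 10 cancer epithelial markers was higher in the CD90-negative library in 5 of 5 pools, with log2 ratios of 2.59, 1.27, 1.78, 1.99 and 0.85. In pool 5 the epithelial ratio was the smallest, and the HOX and fibroblast ratios were the farthest below 0. The PBX sum, in contrast, gave −0.90, 0.68, −0.061, −0.075 and −0.12, and the MEIS sum −0.73, −1.75, −0.33, −1.14 and −1.42. The part of these markers in the HOX and MEIS differences was not tested.

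**Figure D4:**
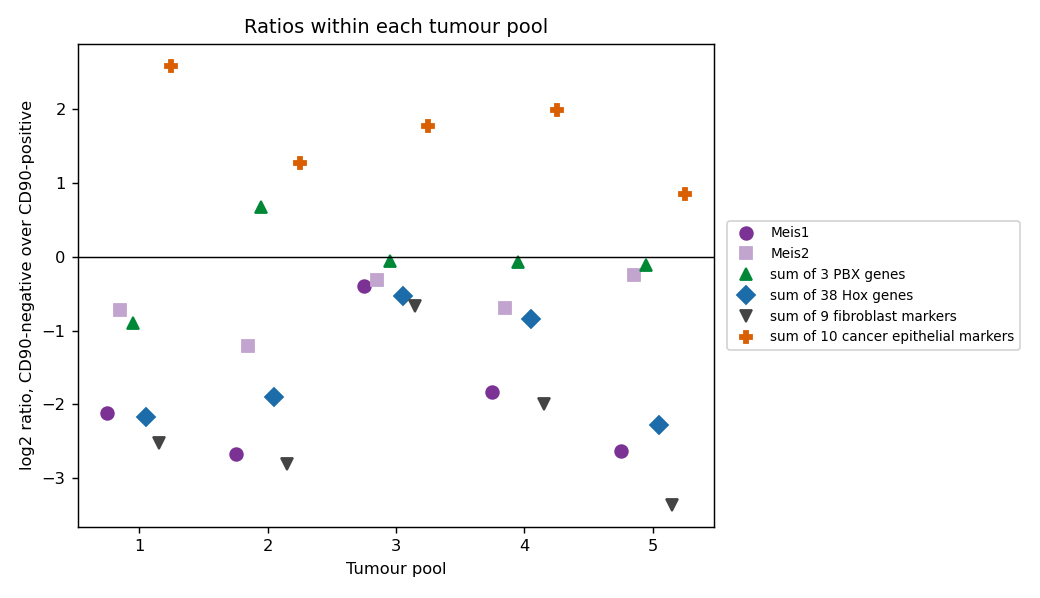
Log2 ratio of the CD90-negative to the CD90-positive library within each of the 5 tumour pools, for Meis1, Meis2, the PBX sum, the HOX sum and the fibroblast and cancer epithelial marker sums. The PBX and HOX sums are in CPM per kb and the others in CPM, with 0.5 CPM added for Meis1 and Meis2. Meis1, Meis2, the HOX sum and the fibroblast sum lie below 0 in each pool, the epithelial sum lies above 0 in each, and the PBX sum lies on either side.

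The markers of other cells that such a sort could hold were read list by list, with the 2 most abundant of each list and others that were named after their values were seen. Of the fibroblast list, Col1a1 fell from 19701 ± 4167 to 4432 ± 2795 CPM and Col3a1 from 14653 ± 2712 to 3597 ± 2113 CPM (SD, n = 5), both collagens of the tumour matrix. Of the 10 cancer epithelial markers 7 rose, among them Krt8 (log2 fold 1.48) and Krt18 (2.04), keratins of glandular epithelium, with a summed level of 800 to 3016 CPM in CD90-negative and 233 to 1676 CPM in CD90-positive libraries. Of the 6 endothelial markers 2 rose, and their sum ran from 30.7 to 248 and from 26.8 to 37.5 CPM. The 248 CPM belonged to pool 2, where Vwf was at 125 CPM. The 2 that rose were the junction genes Cdh5, at 19.05 ± 24.1 and 0.421 ± 0.335 CPM (adjusted p = 0.0251 in edgeR), and Pecam1, at 12.8 ± 10.7 and 2.19 ± 1.76 CPM (adjusted p = 0.0351 in edgeR), both without overlap. The median log2 fold of the list was 2.598. Kdr, a VEGF receptor, was the 1 with a log2 fold below 0, at 18.3 ± 9.51 and 27.6 ± 4.24 CPM.

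None of the 6 pericyte, 5 tested leukocyte or 2 tested acinar markers passed the test. The pericyte sum was 160 CPM in the CD90-negative library of pool 2, 12.0 to 32.7 CPM in the other CD90-negative libraries and 48.5 to 81.2 CPM in the CD90-positive ones. Its genes differed in direction, and the median log2 fold of the list was −1.43. Kcnj8 was at 2.25 ± 1.24 and 7.89 ± 5.57 CPM with no overlap (log2 fold −1.90, SE 0.59). Abcc9 was at 2.97 ± 1.57 and 7.41 ± 4.40 CPM. Cspg4 was at 9.41 ± 10.8 and 24.7 ± 5.51 and Notch3 at 13.5 ± 20.2 and 20.9 ± 3.74 CPM, while Rgs5 was at 7.52 ± 12.7 and 0.338 ± 0.275 CPM with no overlap (log2 fold 3.14, SE 1.12) and Mcam at 12.4 ± 18.02 and 3.92 ± 1.54 CPM. The leukocyte sum ran from 8.08 to 24.8 and 6.57 to 13.03 CPM, with Csf1r at 4.605 ± 2.61 and 4.26 ± 2.74 and Cd68 at 4.27 ± 1.66 and 3.17 ± 1.59 CPM. Ptprc was at 1.21 ± 0.870 and 0.383 ± 0.356 CPM and Lyz2 at 4.42 ± 4.63 and 1.32 ± 0.469 CPM. The median log2 fold of the leukocyte list was 0.51. The acinar sum ran from 1.52 to 19.3 and 1.18 to 2.97 CPM. Among acinar genes, the amylase Amy2a5 was at 0 to 8.38 CPM and the elastase Cela1 at 1.03 ± 0.529 and 1.36 ± 0.913 CPM. The untested digestive enzyme genes Prss2, at 1.31 ± 1.38 and 0.00614 ± 0.0137 CPM, and Cpa1, at 1.51 ± 1.62 and 0.0525 ± 0.0721 CPM, were higher in the CD90-negative library in 5 of 5 pools with no overlap, and Cela2a was at 1.09 ± 1.008 and 0.220 ± 0.312 CPM. Of the 5 mesothelial markers 2 rose, Msln (log2 fold 1.40) and Krt19 (1.39), the latter also in the epithelial list, and their sum was 254 to 499 and 216 to 474 CPM. The other 3 did not pass and had log2 folds below 0, −2.04 for Upk3b, −1.96 for Wt1 (43.6 ± 45.5 and 105 ± 23.3 CPM) and −1.32 for Lrrn4, which was also the median of the list. Of the Schwann and neural list, Sox10 was at 0 in all libraries, S100b did not pass (0.795 ± 1.11 and 0.752 ± 0.932 CPM) and Ncam1 fell (log2 fold −0.79), so that the sum of 150.3 to 296 against 303 to 392 CPM was mostly Ncam1.

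The reads of single transcripts were examined for 55 transcripts with at least 100 reads of 15 of the genes. Only for Hoxb3-201 did the share of its gene's reads not overlap between fractions. It took 9.50% ± 9.93 of the Hoxb3 reads in CD90-negative and 37.2% ± 10.5 in CD90-positive libraries (SD, n = 5), with an exact two-sided permutation p of 0.0625 and an adjusted p of 1 over the 55, so the difference did not pass. It rested on 82 and 520 estimated reads and was singled out after the values were seen.

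Meis2 showed how the estimates split between near-identical transcripts. Meis2-205 and Meis2-206 differ only by 21 bases, from position 2063 of the longer one, in exon 11 of its 13 exons and within the coding part, so that 7 residues are added in frame. This insert is printed, 5′ to 3′ in the direction of the transcript and from the GENCODE M21 annotation of GRCm38, because it is all that separates them.
Meis2-205 insert: gttttcttcttgatccttcag
Meis2-205 was given 0 reads in 7 of the 10 libraries and Meis2-206 in 2, with 54.99% and 87.8% of the Meis2 reads on Meis2-205 in the CD90-negative libraries of pools 1 and 2 and 59.1% in the CD90-positive library of pool 5. The sum over the transcripts of Meis2, which the tests used, does not depend on this division. The levels per length do depend on how reads were divided among transcripts of unlike length. In the CD90-positive library of pool 5 Meis2 was at 44.4 CPM and 38.1 CPM per kb. In the CD90-negative library of pool 2 it was at 28.8 CPM and 10.1 CPM per kb.

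The other genes of the TALE class moved in both directions. Of 8 tested relatives, 3 rose and 1 fell, with a median log2 fold of −0.52. Over all genes tested 5.83% rose and 7.05% fell, and neither this list nor those below were tested as sets. Pknox2, a close relative of the MEIS genes, fell from 14.3 ± 3.66 to 4.31 ± 4.40 CPM (log2 fold −2.18, adjusted p = 0.00702 in edgeR). Irx3 rose (log2 fold 1.73) and so did Irx5 (1.93), neighbouring Iroquois genes, as well as Tgif1 (0.80), a repressor of TGF-beta and retinoid signalling.

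Inputs that set HOX expression in the embryo were read next. Of 16 tested genes of retinoid, CDX and GDF11 signalling, 5 fell and 0 rose, with a median log2 fold of −0.87. The shares over all genes tested were 7.05% and 5.83%. Aldh1a2, which makes retinoic acid, fell from 165 ± 30.1 to 50.3 ± 42.2 CPM (log2 fold −2.06). Dhrs3, which turns retinal back into retinol, fell by 1.03 on the log2 scale and the retinoic acid receptor gene Rarb by 1.93. Gdf11, a ligand that helps start trunk-to-tail HOX genes in the embryo, fell by 1.88. Crabp2, a retinoic acid carrier named after its values were seen, fell by 2.71.

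Of 16 tested Polycomb genes, whose products keep silent HOX genes closed, 2 rose and 0 fell, and the median log2 fold was 0.11. Ezh2, the main H3K27 methyltransferase, rose from 16.1 ± 3.499 to 31.5 ± 3.60 CPM (log2 fold 0.99, adjusted p = 0.0117 in edgeR), and Cbx7 rose (1.57). Of 11 tested Trithorax and H3K27 demethylase genes, which act on the opposite side, 1 rose, the demethylase gene Kdm6a (log2 fold 1.18), and 0 fell (median 0.08). Both counts stand beside 5.83% of all genes tested that rose and 7.05% that fell.

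The genes around and within the clusters were read in the same fit. Of 7 tested genes that flank the clusters, none passed the test, with a median log2 fold of −0.24. Skap2, beside HOXA, was at 23.3 ± 4.46 CPM in CD90-negative libraries and 31.3 ± 7.87 CPM in CD90-positive ones (log2 fold −0.41, SE 0.19, adjusted p = 0.206 in edgeR). Cbx5, beside HOXC, was at 61.7 ± 10.8 and 52.5 ± 15.1 CPM (log2 fold 0.26, SE 0.20, adjusted p = 0.459 in edgeR). Whether flanking and HOX genes differ from each other in their change was not tested. Of the 11 noncoding RNA genes listed in the clusters, 3 were tested and none passed (median −2.06). Hotairm1, in the HOXA cluster, was at 0.780 ± 0.759 and 2.55 ± 0.726 CPM with no overlap (log2 fold −2.67, SE 1.18, adjusted p = 0.18 in edgeR), and Hoxaas2 was at 0.748 ± 0.719 and 1.49 ± 0.835 CPM. The library kit keeps the strand, but whether the counting used it was not given in the sources used here. Reads of a HOX gene and its antisense partner, or of HOX transcripts that share exons, may therefore have been divided by the model.

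Of 15 tested other positional factors of the mesenchyme around gut and pancreas, 2 fell and 1 rose, and their median log2 fold was −1.87. The shares over all genes tested were 7.05% and 5.83%, with a median of 0.04. Barx1, a factor of stomach and spleen mesenchyme, fell from 33.8 ± 12.0 to 7.95 ± 6.46 CPM (log2 fold −2.42, adjusted p = 0.0111 in edgeR). Hand2, known from heart and limb, fell from 36.5 ± 10.6 to 8.33 ± 4.84 CPM (log2 fold −2.30, adjusted p = 0.00595 in edgeR), and in both genes the fractions did not overlap. Foxf2, a forkhead factor of gut mesenchyme, rose from 5.76 ± 2.82 to 11.5 ± 3.31 CPM (log2 fold 1.14, adjusted p = 0.0385 in edgeR).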

How the data were processed

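RNA-seq of 10 libraries, a CD90-positive and a CD90-negative library from each of 5 tumour pools, was used. Per the labels, libraries were made with a stranded low-input kit from 0.1 to 1.2 ng of total RNA with an integrity number of 3.1 to 8.7, with 10 or 5 cDNA cycles and 14 final cycles, so reads are not independent molecules. The authors deposited estimated counts, TPM and effective lengths per transcript from Salmon 1.9.0, with the builds GRCm39 and mm39, per the submitters' processing notes. Annotation release, strand setting and bias options of the index and run were not given in the sources used here. TPM, as deposited, entered no result. Deposited effective lengths (a score per transcript in bases) were used for levels per length.

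Transcript IDs were matched without version to GENCODE M21 (GRCm38) for names only, and 92.4% of 144584 matched; the rest held 3.63% to 12.1% of a library's counts. Estimated counts were summed per gene and rounded. The test was the robust quasi-likelihood fit of edgeR 4.0.16 (R 4.3.3; filterByExpr, TMM, pool block), with Benjamini-Hochberg adjustment over 15378 genes and a threshold of 0.05. The numbers pair the libraries because both fractions of a pool share animals; the paired deviations from group means had correlations of 0.05, 0.04, 0.56, 0.07 and 0.30 over pools 1 to 5. No 2 libraries of a group agreed within counting noise (chi-square per degree of freedom at least 39.2). The fit was tested on simulated data.

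The genes and lists were chosen with earlier results of these data known. Full values are given for the called genes and the 8 uncalled tested ones with the highest mean CPM, up to 4 called genes (otherwise 2) of a pathway list, and up to 2 of a marker list by mean CPM. The lists were TALE relatives, Polycomb, Trithorax, retinoid inputs, noncoding RNAs and flanking genes of the clusters, regional factors, and markers of 8 cell types. Another 2 genes of the families and 3 genes of the lists entered the fit but are not reported here. Alternatives were no block, RLE and upper-quartile scaling, DESeq2 1.42.0, voom in limma 3.58.1, other filters and feature sets, a length offset, a mitochondrial rRNA covariate, and pools left out.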

Additional observations from a re-analysis of the deposited data

Results flagged for a closer look

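For the 29 tested genes and Thy1, 60 groups of 5 libraries were examined for a library standing apart. The rule was a gap to its nearest neighbour of more than 0.71 of the group's range. This limit marks about 1 in 20 groups of independent normal values. CPM values of genes from the same libraries need not be such, so the 6 groups found were not set against that rate. Of these, 4 were the CD90-negative library of pool 3, which was high: Hoxa4 at 7.23 CPM beside at most 1.21 in the others, Hoxc6 at 3.62 beside at most 0.62, Hoxc8 at 5.49 beside at most 0.792, and Meis1 at 59.7 beside at most 15.0 CPM. In the same library the fibroblast marker sum was 20455 CPM, the highest of the CD90-negative libraries, and the mitochondrial rRNA share was 35.6%, the lowest of them; their part in these values was not tested. Hoxb4 was at 25.8 CPM in the CD90-negative library of pool 4, beside 4.06 to 6.91 in the others. Hoxb8 was at 4.43 CPM in the CD90-negative library of pool 2, beside at most 0.99.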

How the results depend on the processing

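Of 514 values of the tested HOX, MEIS and PBX genes under 18 alternative settings, 497 kept their direction, including all 126 of the 7 called genes. The number of these genes that fell (7) was 2 with no replicate block, 17 with DESeq2, 2 with the length offset, 0 with the mitochondrial rRNA covariate, 1 to 8 with a pool left out and 0 without pools 4 and 5. Over all genes, 896 rose and 1084 fell; the numbers were 421 and 544 without the replicate block, so the pairing moved the calls, 1638 and 1814 with DESeq2, 336 and 474 with the length offset, 0 and 0 with the covariate, 308 to 820 and 367 to 1199 with a pool left out, and 357 and 184 without pools 4 and 5. With the covariate, 882 genes had an unadjusted p under 0.05. No HOX, MEIS or PBX gene rose under any setting, DESeq2 included. Genes expressed in both fractions (14) numbered 23 with protein-coding nuclear genes only, 23 without mitochondrial genes, 23 at 0.5 CPM, 7 with 1 CPM in all 5 libraries and 24 at 10 counts.

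Directions turned only for uncalled genes. With the covariate the log2 fold was 1.05 for Hoxa9, −9.11 for Hoxa10, 0.41 for Hoxb6, 0.015 for Hoxc6, 0.93 for Pbx2, 0.13 for Skap2, −0.34 for Cbx5, 1.34 for Cela1, −2.14 for Csf1r, −0.11 for Cd68 and −1.71 for S100b. With DESeq2 it was −0.31 for Hoxa10; with voom −0.076 for Pbx3, −0.14 for Pbx4 and −0.15 for Csf1r; without the block −0.15 for Pbx4; with the length offset −0.036 for Cbx5 and 0.12 for Cela1. With a pool left out it ran from −1.41 to 1.46 for Hoxa10, −0.30 to 0.17 for Pbx2, −0.34 to 0.43 for Pbx3, −0.19 to 0.60 for Pbx4, −0.67 to 0.090 for Cela1, −0.41 to 0.45 for Csf1r and −0.014 to 1.55 for S100b. Without pools 4 and 5 it was −1.44 for Hoxa10, 0.40 for Hoxc5, −0.32 for Pbx3, −0.57 for Pbx4, −0.047 for Csf1r and −0.17 for S100b. The cause of these changes was not tested. Levels per length without 1 CD90-negative library were an alternative chosen after seeing the data, and each such mean of Hoxb4, Hoxa5, Meis1 and Pbx3 moved by less than 1 SD. Few reads stand behind the HOX genes below 1 CPM.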
